A study of Mus musculus with 12 samples.

Results

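The liver of adult mice lacking Socs2 was compared 36 h after removal of 2/3 of the liver with liver of Socs2-null mice that had no operation. The comparison rests on 4 of the 12 arrays of the series, chosen by their titles as the 2 Socs2-null arrays at 36 h and the 2 Socs2-null arrays at time 0. The mice were C57BL/6 wildtypes and Socs2-null mutants, and both genotypes were sampled at 0, 24 and 36 h. Each array held RNA pooled from 3 animals, so n = 2 pools in each group, and spread among single animals is not seen. The labels call the pools biological replicates, and p-values measure the spread between such pools. No group had a sham operation. The labels state neither the sex of the mice nor when in the day livers were taken, so liver loss, surgery and hour of day cannot be told apart.

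An adult liver is mostly quiescent. After partial hepatectomy hepatocytes leave quiescence, raise their capacity to make RNA and protein, replicate DNA and divide until liver mass is restored, while the remaining tissue keeps up secretion and metabolism. SOCS2 is induced by STAT5 and dampens signals of the growth hormone receptor in a negative loop. Growth hormone is one of the signals that set hepatic gene expression, including its sex-dependent part.

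Values are the deposited intensities, and changes are on log2(intensity + 16), given as log2 change ± standard error of the 36 h pools against the unoperated pools. Adjusted p-values come from limma with Benjamini-Hochberg adjustment over 17097 genes, and a gene is said to have risen or fallen where that value was below 0.05. Folds are taken from the log2 change. They are written as "at least" where the dimmer group lay below the brightest tag control, a probe set with no mouse target, on both of its arrays. That control read 45.01 and 35.25 in the unoperated Socs2-null pools and 33.78 and 33.98 at 36 h. Folds with only 1 pool of the dimmer group below it carry no such mark, although they too rest on values near background. This holds for Cdkn1a, Ly6d and Arntl without operation and for Dbp at 36 h. In bulk tissue, a change in the number of cells of one type and a change in RNA per cell cannot be told apart.

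Of the 4 Socs2 probe sets, the one with the highest mean over all arrays gave 26.4 and 27.6 in the unoperated Socs2-null pools and 28.7 and 23.1 at 36 h, against 546 and 261 in unoperated and 264 and 173 in 36 h wildtype pools. All 4 of these Socs2-null values lay below the brightest tag control of their array. Another Socs2 probe set did not separate the genotypes, at 96.4 and 95.1 unoperated and 75.8 and 65.7 at 36 h in Socs2-null pools, above background without operation, and 97.4 and 90.4 and then 61.4 and 63.7 in wildtype. Which part of the gene the mutation removes is not given in the sources used here, so the probe sets check the label only in part. Hepatocyte transcripts dominated every array, with Alb, the albumin gene, at 18344 and 18279.6 without operation and 16452 and 15617 at 36 h (log2 change -0.19 ± 0.07, adjusted p = 0.0595).

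Of 17097 genes, 3434 passed the threshold, which is 20.1% of those tested. Among them 1690 rose (9.88%) and 1744 fell (10.2%). Without unoperated pool 1, unoperated pool 2 or 36 h pool 1 the count was 1756, 1589 or 2144. At least a 2-fold change was reached by 311 of the genes that rose and 352 of those that fell. Over all genes the median log2 change was -0.03, and 46.0% of genes had a higher mean at 36 h. After centring on array medians 1903 genes rose and 1442 fell, and after quantile normalization 1589 rose and 1897 fell. With the dimmest 50% of genes dropped, 1656 of 8547 genes rose and 1415 fell, larger shares than over all genes. In each of the 3434 genes both 36 h pools lay on the same side of both unoperated pools, which was so for 10619 genes in all. Pearson's r across genes on the log2 scale was 0.987 between the 36 h pools, 0.991 between the unoperated pools and 0.956 to 0.965 between the groups. The 18 bacterial hybridization controls, spiked into each labelled sample, averaged 9.86 and 9.97 on the log2 scale in the unoperated pools and 9.23 and 9.01 at 36 h, so this control level moved with the comparison. A fit with that level as a covariate called 1428 genes, 915 of them among the 3434. It is referred to below as the control covariate. Its slope rests on the smaller gaps between pools of the same group, so it separates control level and comparison poorly. A call ended or a sign turned there does not by itself settle the change. Of 151 named genes past the threshold 76 stayed past it in that fit and 75 did not. Where it ended a call, the log2 change and the adjusted p of that fit close the brackets of the gene. Among genes given without an adjusted p, it ended the calls of Tnfrsf12a, Sult2a8, Depp1, Hat1, Rbbp4, Cct3, Cct5, Cct6a, Cct7 and Cpt1a.

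**Figure D1:**
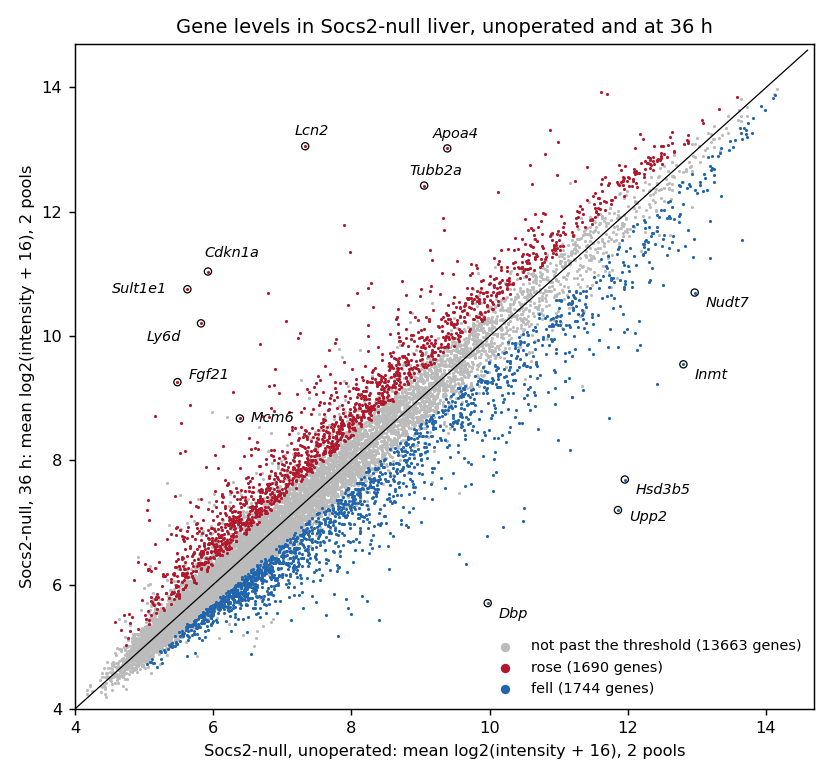
Mean log2(intensity + 16) of the 2 unoperated Socs2-null pools (x axis) against the 2 Socs2-null pools at 36 h (y axis), 1 point per gene. Red points are the 1690 genes that rose and blue points the 1744 that fell, and the line marks equal levels. Among the labelled genes Lcn2, Sult1e1 and Cdkn1a lie farthest above the line, and Upp2, Dbp and Hsd3b5 farthest below it.

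The largest rises joined an innate defence protein, a cell cycle inhibitor and enzymes of steroid, drug and amino acid metabolism. Lcn2, whose product lipocalin 2 binds iron-carrying siderophores, read 206 and 100.3 in the unoperated pools and 8490.5 and 8494 at 36 h, a 52.9-fold rise (log2 change 5.72 ± 0.26, adjusted p = 1.48e-06). Cdkn1a, the p21 inhibitor of cyclin-dependent kinases, went from 43.5 and 45.8 to 2375 and 1833 (34.7-fold, log2 change 5.12 ± 0.34, adjusted p = 2.26e-05). Sult1e1, the estrogen sulfotransferase, went from 43.4 and 25.03 to 1800.1 and 1623 (at least 30.9-fold, log2 change 5.13 ± 0.71, adjusted p = 0.00111, and with the control covariate 6.88 at 0.0728). In these 3 genes the lower 36 h pool was many times the higher unoperated pool. Ly6d, a surface antigen best known from lymphoid precursors, rose 20.8-fold from 42.9 and 38.3 to 1290.3 and 1048, and the xenobiotic-inducible Cyp2b10 rose 14.97-fold from 126 and 71.02 to 1923 and 1410.2. Fgf21, a hepatic stress and fasting hormone, went from 27.9 and 29.4 to 916 and 386 (at least 10.9-fold, log2 change 3.78 ± 0.64, adjusted p = 0.00311 and 0.0559 without 36 h pool 1, and with the control covariate 3.01 at 0.367).

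The next rises were of secreted, surface and cytoskeletal proteins. Apoa4, an apolipoprotein of triglyceride-rich particles, read 861 and 495 and then 8717 and 7876 (12.4-fold, log2 change 3.63 ± 0.23, adjusted p = 1.10e-05). Psat1, which makes phosphoserine in serine synthesis, went from 23.3 and 16.3 to 449 and 366 (at least 7.53-fold). Tnfrsf12a, the receptor of the progenitor mitogen TWEAK, went from 237 and 236 to 3468 and 1966 (10.4-fold), with the 36 h pools well apart from each other but both above the unoperated pools. Thbd, the thrombin receptor thrombomodulin, went from 39.5 and 29.96 to 495 and 421 (at least 8.45-fold). Marco, a macrophage scavenger receptor, rose from 116 and 117 to 865 and 1650.1 (9.14-fold, log2 change 3.19 ± 0.28, adjusted p = 8.04e-05). The acute phase proteins Orm2 and Orm3, Cd14 and the tubulin Tubb2a complete the 15 largest rises and are described with their lists.

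**Figure D2:**
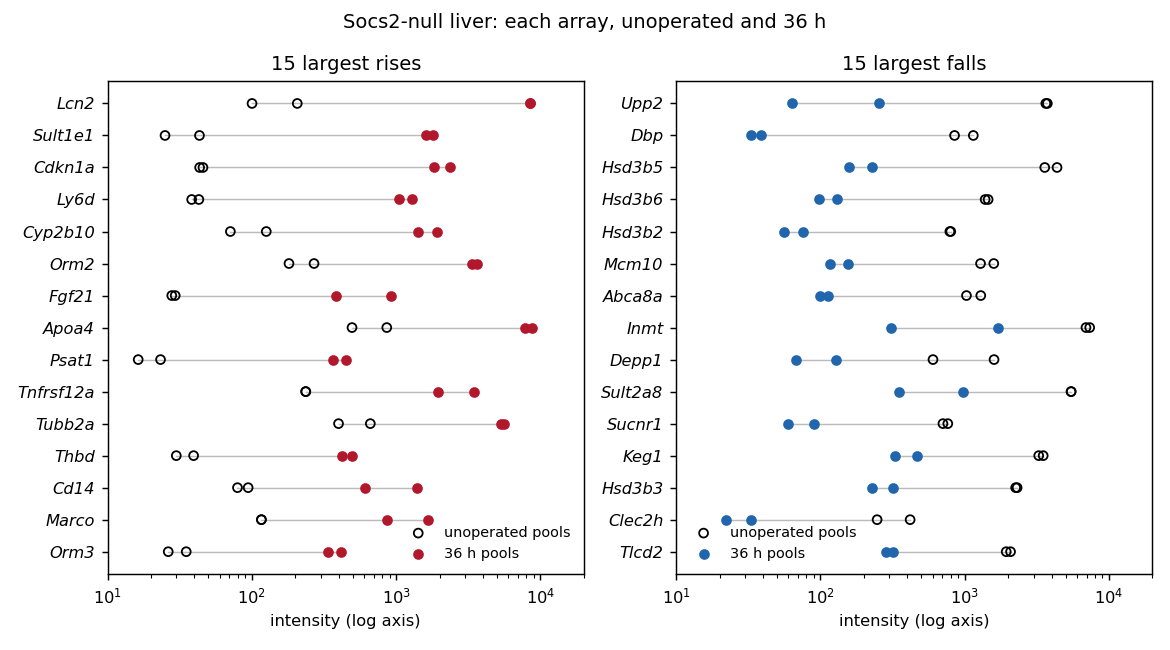
Intensity on each of the 4 Socs2-null arrays (log axis) for the 15 genes with the largest rise and the 15 with the largest fall among genes past the threshold. Open circles are unoperated pools and filled circles 36 h pools. The groups are apart in every row, and the 36 h pools of Inmt, Upp2 and Sult2a8 are spread more widely than those of most other genes shown.

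The largest falls were of clock output, nucleoside, steroid and sulfation genes. Upp2, a uridine phosphorylase, fell 25.3-fold from 3648 and 3738 to 255 and 63.5 (log2 change -4.66 ± 0.58, adjusted p = 0.000693, and with the control covariate -3.86 at 0.205). Dbp, a transcription factor driven by the circadian clock, fell 19.3-fold from 850.3 and 1147 to 33.2 and 39.03 (log2 change -4.27 ± 0.24, adjusted p = 3.98e-06). Hsd3b5, a 3-ketosteroid reductase expressed most strongly in male liver, fell 19.2-fold from 3587 and 4362 to 158 and 229 (log2 change -4.27 ± 0.51, adjusted p = 0.000555). Its paralogs fell as well, Hsd3b6 from 1453 and 1386 to 98.3 and 131, Hsd3b2 from 789 and 800.3 to 55.5 and 75.4 and Hsd3b3 from 2307 and 2254 to 229 and 321. These near-identical copies may share probes, so their values may not be separate measurements.

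Transport and amine-modifying genes made up other large falls. Inmt, an amine N-methyltransferase, fell from 6924 and 7348 to 1706 and 308 (log2 change -3.26 ± 0.64, adjusted p = 0.00602 and 0.0865 on the 4 arrays alone, and with the control covariate -0.64 at 0.837), with its 36 h pools far apart from each other but both below the unoperated pools. Sult2a8, a bile acid sulfotransferase of mouse liver, fell 9.12-fold from 5462 and 5462 to 973 and 349. Abca8a, an ABC transporter, fell 9.61-fold from 1028 and 1292 to 99.4 and 112, and Sucnr1, the succinate receptor, 8.38-fold from 764 and 706 to 59.98 and 89.6. Keg1, Clec2h, Tlcd2 and Depp1 fell 8.29-fold, at least 6.78-fold, 6.34-fold and 9.13-fold. Mcm10, a replication initiation factor, fell 9.64-fold from 1589.8 and 1287 to 116 and 154 on its brightest probe set. Its 2 other probe sets were dim. One read 60.0 and 57.4 and then 25.3 and 29.3 (log2 change -0.79), the other 30.6 and 20.6 and then 27.3 and 24.2 (log2 change 0.01), so the size of the fall rests on the bright probe set.

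Genes of DNA replication were among those that rose. Of the genes for the MCM helicase and origin licensing, which load and fire replication origins, 10 rose and 1 fell of 21 measured (6 and 1 without unoperated pool 1 or 36 h pool 1, 2 and 1 without unoperated pool 2, 5 and 1 without 36 h pool 2, 1 and 1 with the control covariate), with a median log2 change of 0.62 (0.10 with the control covariate). In brackets after such counts, pairs give rises and falls under the named setting. All counts of lists are to be read beside the shares over all genes, 9.88% rising and 10.2% falling. Mcm6, a subunit of the MCM2-7 helicase, went from 64.2 and 71.01 to 341 and 450.2 (4.88-fold, log2 change 2.29 ± 0.35, adjusted p = 0.00178, and with the control covariate 0.54 at 0.573). Mcm2 went from 46.02 and 25.4 to 111 and 186 (log2 change 1.66 ± 0.37, adjusted p = 0.0116 and 0.0811 to 0.0857 without unoperated pool 2 or 36 h pool 2, and with the control covariate -0.10 at 0.946). Mcm5 rose from 41.05 and 34.9 to 111 and 168 (1.51 ± 0.32, adjusted p = 0.00843 and 0.0549 to 0.0566 without unoperated pool 2 or 36 h pool 2, and with the control covariate -0.05 at 0.963). Mcm3 went from 30.2 and 27.8 to 69.1 and 68.97 (0.92 ± 0.19, adjusted p = 0.00629 and 0.0505 without unoperated pool 2, and with the control covariate 0.28 at 0.722). Gins2, part of the helicase activator GINS, rose from 33.7 and 35.97 to 70.6 and 94.9 (0.95 ± 0.17, adjusted p = 0.00341, and with the control covariate 0.21 at 0.747). The unoperated values of Mcm3 and Mcm5 lay below the brightest tag control in both pools, and those of Mcm2 and Gins2 in 1 pool. The rises of these genes thus start at or near background. The gene of the list that fell was Mcm10. With the control covariate Mcm2 and Mcm5 had log2 changes of -0.10 and -0.053, so their direction was not kept there.

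In the list of DNA synthesis and replication fork genes 8 rose and 1 fell of 26 measured (4 and 1 without unoperated pool 1 or 36 h pool 2, 3 and 1 without unoperated pool 2, 0 and 2 with the control covariate), and the median was 0.53 (-0.22 with the control covariate). Pcna, the sliding clamp of DNA polymerases, went from 641 and 656 to 1148 and 1195 (log2 change 0.84 ± 0.17, adjusted p = 0.00538, and with the control covariate 0.47 at 0.482). Prim1, the catalytic primase subunit, rose from 60.8 and 55.03 to 141 and 234 (1.42 ± 0.24, adjusted p = 0.00243, and with the control covariate 0.07 at 0.933). Pold1, of the lagging-strand polymerase, went from 47.9 and 34.2 to 81.9 and 71.9 (0.71 ± 0.14, adjusted p = 0.00431, and with the control covariate 0.45 at 0.412). Its value in unoperated pool 2 lay below the brightest tag control. The 1 gene that fell was Tk1, thymidine kinase of the salvage pathway, from 359 and 351 to 71.7 and 93.99 (-1.92 ± 0.27, adjusted p = 0.00116). Rrm2, the ribonucleotide reductase subunit tied to S phase, read 135 and 127 and then 232 and 191, which did not pass (log2 change 0.62 ± 0.21, adjusted p = 0.0565). Among E2F and FoxM1 regulators 2 rose and 1 fell of 16 measured (1 and 0 without unoperated pool 1 or unoperated pool 2, 0 and 2 with the control covariate), and the median was 0.20 (-0.05 with the control covariate). The counts of this regulator list were near the shares over all genes. Tfdp1, the dimerization partner of E2F factors, went from 221 and 226 to 426 and 382 (0.81 ± 0.14, adjusted p = 0.00279, and with the control covariate 0.80 at 0.156), while Foxm1 stayed below the brightest tag control at 32.2 and 30.6 and 29.4 and 27.5.

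In the list of cyclins and cyclin-dependent kinases no member passed, and mitotic genes gave rises and falls. Of cyclins and cyclin-dependent kinases 0 rose and 0 fell of 16 measured (4 and 0 at unadjusted p under 0.05), with a median of 0.34 (0.19 without 36 h pool 2, -0.06 with the control covariate). Ccnd1, cyclin D1 of the G1 phase, read 449.9 and 436 and then 1039.9 and 1348, apart in all pools but not past the threshold (log2 change 1.39 ± 0.46, adjusted p = 0.0584). Cdk1, the mitotic kinase, read 70.03 and 65.7 and then 66.8 and 123, and Ccna2 42.8 and 31.5 and then 40.01 and 44.5. For mitosis and chromosome segregation 2 rose and 6 fell of 48 measured (0 and 3 without unoperated pool 1, 0 and 5 without unoperated pool 2 or with the control covariate, 2 and 2 without 36 h pool 1, 0 and 4 without 36 h pool 2), and the median was -0.02 (0.03 without unoperated pool 1, -0.12 without unoperated pool 2, 0.02 without 36 h pool 1 or after centring on array medians, -0.05 without 36 h pool 2, -0.34 with the control covariate). Over all genes tested 9.88% rose and 10.2% fell, so the share of falls in this list was near that of all genes and the share of rises lay below it. In this list 17 members lay below the brightest tag control in both groups. Mki67, the proliferation antigen Ki-67, read 51.6 and 41.5 and then 39.03 and 47.4 (log2 change -0.08 ± 0.19, adjusted p = 0.815), with the groups overlapping, and Plk1 48.8 and 45.9 and then 44.9 and 40.8. Pttg1, securin, fell from 1533 and 1702 to 680.4 and 796 (-1.12 ± 0.12, adjusted p = 0.000158). Cenpf, a kinetochore protein, fell from 156 and 179 to 107 and 90.7 (-0.68 ± 0.12, adjusted p = 0.00287, and with the control covariate -0.29 at 0.519). Among histones and chromatin assembly genes 3 rose and 2 fell of 16 measured (1 and 1 without unoperated pool 1, unoperated pool 2, 36 h pool 1 or 36 h pool 2, 0 and 0 with the control covariate, 2 and 1 with the replicate block). Hat1, which acetylates new histone H4, rose from 178 and 175 to 369.7 and 415 and the histone chaperone Rbbp4 fell from 556 and 599 to 342 and 364.

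Inhibitors and p53 targets moved in both directions. In that list 6 rose and 4 fell of 23 measured (3 and 1 without unoperated pool 2, 4 and 2 without 36 h pool 1, 1 and 1 with the control covariate). Beside Cdkn1a, Mdm2, the ubiquitin ligase of p53, rose from 191 and 176 to 375 and 336 (log2 change 0.89 ± 0.12, adjusted p = 0.000778, and with the control covariate 0.81 at 0.0950). Gadd45b, a stress-inducible growth arrest gene, rose from 64.6 and 65.4 to 173 and 155 (1.15 ± 0.20, adjusted p = 0.00291, and with the control covariate 1.18 at 0.160). Cdkn2c, the CDK4 and CDK6 inhibitor p18, fell from 187 and 189.7 to 73.05 and 107 (-0.96 ± 0.19, adjusted p = 0.00535). Of immediate-early transcription factors 4 rose and 0 fell of 19 measured (9 and 0 at unadjusted p under 0.05, 2 and 0 without unoperated pool 1 or 36 h pool 1 or with the control covariate). Fos read 44.1 and 99.8 and then 199.9 and 134 and Myc 144 and 53.3 and then 339 and 105, neither past the threshold, with the 2 pools of a group up to several-fold apart. Egr1 read 95.8 and 803 and then 2108 and 1428, and its call (log2 change 2.53 ± 0.72, adjusted p = 0.0321) was lost under 13 alternatives, with adjusted p from 0.0521 to 0.446. Among them were the control covariate and each fit that left out a 24 h or 36 h pool of either genotype or unoperated Socs2-null pool 1.

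Ligands and receptors of hepatocyte growth signals rose more often than they fell, with 7 rises and 1 fall among 24 measured members (2 and 1 without unoperated pool 1, 4 and 0 without unoperated pool 2, 2 and 0 without 36 h pool 1, 10 and 2 without 36 h pool 2, 8 and 2 after quantile normalization). Tnfrsf1a, a receptor of the priming cytokine TNF, went from 611 and 579 to 1232 and 1035 (log2 change 0.91 ± 0.17, adjusted p = 0.00394). Il6st, the gp130 chain shared by IL-6 family receptors, rose from 551 and 569 to 854 and 824 (0.57 ± 0.11, adjusted p = 0.00424, and with the control covariate 0.70 at 0.0999). Hgf, the hepatocyte growth factor, read 41.4 and 50.3 and then 73.5 and 68.9 (log2 change 0.50 ± 0.12, adjusted p = 0.0133 and 0.0760 to 0.108 without unoperated pool 1 or 36 h pool 1, and with the control covariate 0.59 at 0.218). The Hgf value in unoperated pool 1 lay below the brightest tag control. Egfr, the EGF receptor, read 1254 and 2759 and then 1112 and 1303, with the groups overlapping, and did not pass (-0.62 ± 0.32, adjusted p = 0.207). Among fetal liver and progenitor genes 4 rose and 0 fell of 14 measured (4 and 1 at unadjusted p under 0.05, 2 and 0 with the control covariate). Afp, alpha-fetoprotein, went from 27.7 and 32.3 to 127 and 517 (at least 4.94-fold, log2 change 2.59 ± 0.45, adjusted p = 0.00359 and 0.0858 on the 4 arrays alone, and with the control covariate 0.89 at 0.659), with the 36 h pools well apart from each other.

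**Figure D3:**
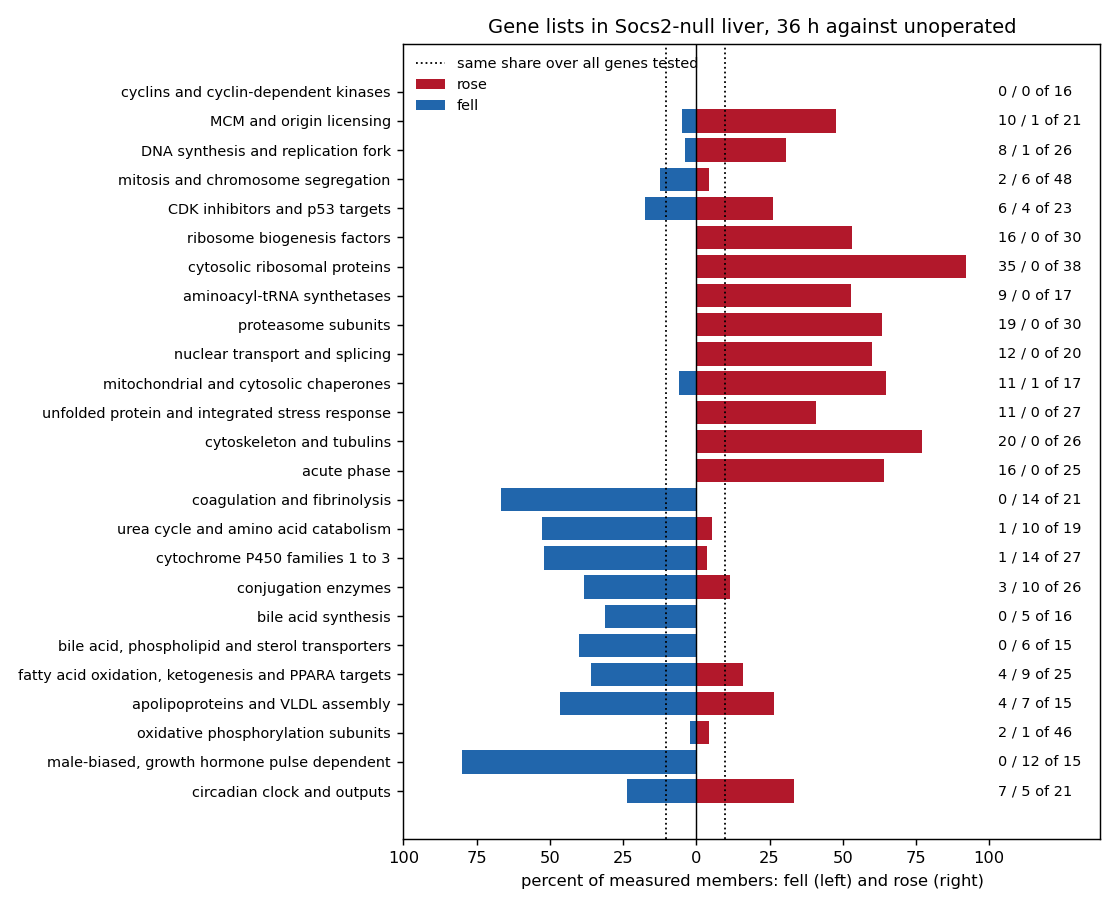
Share of the measured members of 25 gene lists that rose (red, right) or fell (blue, left) in Socs2-null liver at 36 h, with the counts as rose / fell of measured. Dotted lines mark the shares over all genes, 9.88% rising and 10.2% falling. Those shares include dim genes. With the dimmest 50% of genes dropped, 1656 of 8547 genes rose and 1415 fell, so the lines are low for lists of bright genes. Ribosomal protein genes and cytoskeletal genes have the highest shares of rises, and the male-biased and coagulation lists the highest shares of falls.

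Many genes for making, folding and degrading protein rose. Of cytosolic ribosomal proteins 35 rose and 0 fell of 38 measured (35 and 0 at unadjusted p under 0.05, 21 and 0 without unoperated pool 2, 2 and 0 with the control covariate), with a median log2 change of 0.45 (0.29 with the control covariate). Rpl12 went from 2663 and 2726 to 4679 and 4602 (log2 change 0.78 ± 0.09, adjusted p = 0.000400). Rps19 rose from 3058 and 2974 to 4528 and 5051 (0.66 ± 0.09, adjusted p = 0.000791, and with the control covariate 0.71 at 0.0617). Rpl13 rose from 4992 and 4968 to 7392 and 7614 (0.59 ± 0.08, adjusted p = 0.000632, and with the control covariate 0.46 at 0.132). The pools of each group lay close together in these genes, and the groups were far apart. Rps29, the brightest member, read 9066 and 9137 and then 10093 and 9650.0 and did not pass (0.12 ± 0.07, adjusted p = 0.293). Ribosomal protein genes have many processed pseudogenes, and the probe sets may read more than 1 copy.

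Ribosome biogenesis factors gave 16 rises and 0 falls among 30 measured members (24 and 0 at unadjusted p under 0.05, 7 and 0 without unoperated pool 1, 5 and 0 without unoperated pool 2 or 36 h pool 1), and the median was 0.77 (1.16 without 36 h pool 2, 1.77 with the control covariate). Ddx21, an RNA helicase of the nucleolus, rose from 183 and 196 to 824 and 524 (log2 change 1.71 ± 0.26, adjusted p = 0.00136). Rrs1, needed for the large subunit, rose from 353 and 288 to 734 and 583 (1.001 ± 0.16, adjusted p = 0.00191). Nhp2, of the box H/ACA ribonucleoprotein that modifies rRNA, rose from 577 and 553 to 1573 and 1164 (1.24 ± 0.25, adjusted p = 0.00588, and with the control covariate 1.92 at 0.0566). Among aminoacyl-tRNA synthetases, which charge tRNAs, 9 rose and 0 fell of 17 measured (13 and 0 at unadjusted p under 0.05, 4 and 0 without unoperated pool 1 or with the control covariate, 3 and 0 without unoperated pool 2), and Hars, the histidine enzyme, rose from 311 and 307 to 773 and 635 (1.14 ± 0.17, adjusted p = 0.00104). For nuclear transport and splicing 12 rose and 0 fell of 20 measured (17 and 0 at unadjusted p under 0.05, 6 and 0 without unoperated pool 1 or 36 h pool 1, 5 and 0 without unoperated pool 2, 2 and 0 with the control covariate). Ran, the GTPase of nuclear transport, rose from 1830.0 and 1702 to 3700.4 and 4258 (1.16 ± 0.12, adjusted p = 0.000129, and with the control covariate 0.75 at 0.0720). Its partner Ranbp1 rose from 709.6 and 690.2 to 1609 and 1538 (1.15 ± 0.16, adjusted p = 0.000808, and with the control covariate 1.21 at 0.0679). The splicing factor Hnrnpa1 rose from 202 and 158 to 446 and 494 (1.32 ± 0.18, adjusted p = 0.000693, and with the control covariate 1.19 at 0.0981).

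Proteasome subunit genes gave 19 rises and 0 falls among 30 measured members (24 and 0 at unadjusted p under 0.05, 9 and 0 without unoperated pool 1 or unoperated pool 2, 8 and 0 without 36 h pool 2, 0 and 0 with the control covariate), with a median of 0.51 (0.32 without 36 h pool 2, 0.15 with the control covariate). Psmd14, the deubiquitinase of the lid, went from 1111 and 1032 to 1724 and 2176 (log2 change 0.85 ± 0.14, adjusted p = 0.00188, and with the control covariate 0.33 at 0.491). Psmd8 rose from 1757 and 1682 to 3499 and 2898 (0.88 ± 0.15, adjusted p = 0.00237, and with the control covariate 1.12 at 0.0660). In mitochondrial and cytosolic chaperones 11 rose and 1 fell of 17 measured (7 and 0 without unoperated pool 2, 2 and 0 with the control covariate). Hsp90aa1, the inducible cytosolic HSP90, rose 5.14-fold from 757 and 530.1 to 2859 and 3864 (2.36 ± 0.23, adjusted p = 0.000112). Cct2, a subunit of the actin and tubulin folding chaperonin, rose from 1513 and 1531 to 2813 and 2808 (0.88 ± 0.12, adjusted p = 0.000764), and 4 other CCT subunits named by rule, Cct3, Cct5, Cct6a and Cct7, had log2 changes of 0.84, 0.78, 0.83 and 0.83. Oxidative phosphorylation subunits gave 2 rises and 1 fall among 46 measured members (2 and 8 after quantile normalization, 0 and 1 with the control covariate) and a median of -0.13 (-0.20 after quantile normalization, -0.29 with the control covariate). Cox6a1, the brightest of them, read 9517 and 9721 and then 9131 and 9341.

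Chaperones of the endoplasmic reticulum were among the genes that rose. In the list of the unfolded protein and integrated stress response 11 rose and 0 fell of 27 measured (16 and 0 at unadjusted p under 0.05, 5 and 0 without unoperated pool 2, 6 and 0 without 36 h pool 2), with a median of 0.64 (1.02 with the control covariate). Hspa5, the master chaperone BiP, rose from 3521 and 3952 to 7299.5 and 6532 (log2 change 0.89 ± 0.17, adjusted p = 0.00397). Manf, a secreted factor of the stressed reticulum, rose from 1577 and 1623 to 4004 and 3915 (1.30 ± 0.24, adjusted p = 0.00468). Pdia4, a disulfide isomerase, rose from 1321 and 1119 to 2459 and 2919 (1.13 ± 0.21, adjusted p = 0.00345). Calr, the lectin chaperone calreticulin, rose from 2693 and 2441 to 3705 and 4755 (0.71 ± 0.13, adjusted p = 0.00285, and with the control covariate 0.41 at 0.400). Among members that did not pass, Herpud1 and Ppp1r15a had log2 changes of -0.10 and -0.07, and Ddit3, the factor CHOP, 0.94 (adjusted p = 0.203).

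ER stress promoters often carry the ERSE, a pair of boxes spelled CCAAT and CCACG with 9 bases between them, bound by NF-Y and ATF6. The spelling was searched on both strands in RefSeq promoter windows (GRCm38.p6) of 300 bases, from 250 before to 50 after a start site. Its first box is the CCAAT box, which alone occurs in windows of 42.3% of the genes tested. The motif was chosen after the expression data were seen. It occurs in windows of 37 of 27025 genes with a window (0.137%) and of 20 of the 13605 tested genes with one (0.147%). Of the 1361 genes with a window that rose it was found in 9, and of the 1392 that fell in 0. In the stress list 7 of 24 genes with a window held it, 6 of them among the 10 that rose and have a window. The stretches shown are those of the 6 members that rose, because they share the spelling, and lie wholly upstream of the start site on the gene's strand. Capitals mark the CCAAT and CCACG boxes, or their complements ATTGG and CGTGG where the motif runs on the other strand.
Hspa5, chr2:34772005-34772063, plus strand: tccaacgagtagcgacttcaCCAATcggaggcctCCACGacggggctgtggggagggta
Calr, chr8:84847055-84847113, minus strand: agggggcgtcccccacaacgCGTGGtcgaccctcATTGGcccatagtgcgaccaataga
Pdia6, chr12:17266471-17266529, plus strand: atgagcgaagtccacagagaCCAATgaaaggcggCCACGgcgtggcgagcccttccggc
Dnajc3, chr14:118937807-118937865, plus strand: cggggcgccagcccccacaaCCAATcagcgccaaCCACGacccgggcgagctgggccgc
Creld2, chr15:88819500-88819558, plus strand: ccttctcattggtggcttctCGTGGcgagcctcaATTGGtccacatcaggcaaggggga
Hsp90b1, chr10:86705513-86705676, minus strand: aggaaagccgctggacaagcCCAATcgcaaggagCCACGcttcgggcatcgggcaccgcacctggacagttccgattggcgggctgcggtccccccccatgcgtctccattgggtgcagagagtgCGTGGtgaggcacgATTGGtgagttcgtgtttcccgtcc

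The Hsp90b1 stretch holds the motif in both directions. The Creld2 stretch also lies in the window of Alg12, which is read from the opposite strand, so 1 stretch of sequence counts for both genes. Creld2, a redox chaperone, went from 584 and 509 to 1503 and 1869 (log2 change 1.59 ± 0.44, adjusted p = 0.0300 and 0.0539 to 0.182 without unoperated pool 1, unoperated pool 2, 36 h wildtype pool 1, 36 h wildtype pool 2, 36 h pool 1 or 36 h pool 2 or with pseudocount 64, and with the control covariate 3.42 at 0.0608). Alg12, a mannosyltransferase of N-glycan assembly, rose from 91.3 and 100.04 to 165 and 196 (0.81 ± 0.23, adjusted p = 0.0267 and 0.0567 to 0.131 without unoperated pool 1, unoperated pool 2, 36 h pool 1 or 36 h pool 2 or as the mean of its probe sets, and with the control covariate 1.37 at 0.116). Dnajc3, a cochaperone of BiP, went from 3029.7 and 2735 to 4502 and 5316 (0.76 ± 0.23, adjusted p = 0.0406), a call that was lost under 14 alternatives. Among them were each fit that left out an array other than a 24 h wildtype pool, with adjusted p up to 0.181, and the control covariate, quantile normalization, the replicate block and the mean of its probe sets, with adjusted p up to 0.333. Pdia6, a disulfide isomerase, rose from 1608 and 1348 to 2170.3 and 2947 (0.77 ± 0.14, adjusted p = 0.00372, and with the control covariate 0.64 at 0.266). Hsp90b1, the reticular HSP90, rose from 4467 and 4137 to 5736 and 6053 (0.45 ± 0.12, adjusted p = 0.0198 and 0.0517 to 0.133 without unoperated pool 1, unoperated pool 2, 36 h pool 1 or 36 h pool 2, and with the control covariate 0.85 at 0.0511). The 2 other genes with the motif that rose are Acnat2 (log2 change 2.80 ± 0.32, adjusted p = 0.000401, and with the control covariate 2.70 at 0.0768) and Hnrnpa3 (0.63 ± 0.16, adjusted p = 0.0197 and 0.0620 to 0.132 without unoperated pool 1, unoperated pool 2 or 36 h pool 2, and with the control covariate 0.32 at 0.647), and 11 tested genes hold it but did not pass. Of these 11, 5 had a log2 change above 0 and 6 below, from -0.24 in Pan2 to 2.49 in Derl3. They include other genes of the reticulum, the ubiquitin ligase Syvn1 (0.83), the oxidase Ero1b (0.05) and the lectin chaperone Canx (-0.23). Creld2, Alg12, Dnajc3, Hsp90b1, Syvn1, Derl3, Ero1b, Canx, Pan2, Acnat2, Hnrnpa3, Herpud1, Ppp1r15a and Ddit3 were named after their values were seen. A match of letters describes the window and does not show binding.

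Cytoskeletal genes had the highest list median, 1.10, with 20 rises and 0 falls among 26 measured members (22 and 0 at unadjusted p under 0.05, 6 and 0 with the control covariate). Tubb2a, a beta-tubulin, rose 10.3-fold from 663 and 399 to 5588 and 5351 (log2 change 3.37 ± 0.22, adjusted p = 1.10e-05). Tpm1, tropomyosin, rose from 227 and 225 to 557 and 620.1 (1.32 ± 0.12, adjusted p = 8.04e-05). S100a10, a partner of annexin A2, rose from 1788 and 1329 to 6183 and 5060.0 (1.85 ± 0.16, adjusted p = 5.39e-05). Actb, the beta-actin gene often used as a reference, rose from 8855 and 8579 to 10778 and 11191 (0.33 ± 0.07, adjusted p = 0.00730 and 0.0682 without unoperated pool 2, and with the control covariate 0.36 at 0.200). The ratio of its 3' to its 5' control probe set was 1.46 and 1.46 in the unoperated pools and 1.28 and 1.23 at 36 h, and that of Gapdh 0.966 and 1.05, then 1.03 and 0.991.

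Many acute phase genes rose, while many members of the coagulation list fell. Of acute phase genes 16 rose and 0 fell of 25 measured (17 and 1 at unadjusted p under 0.05, 9 and 0 with the control covariate), and the median was 0.59. Saa1, serum amyloid A, rose from 2589 and 1327 to 9966 and 10511 (log2 change 2.45 ± 0.31, adjusted p = 0.000744, and with the control covariate 2.30 at 0.155). Apcs, the serum amyloid P component, rose from 2317 and 1737 to 8256 and 9672 (2.15 ± 0.13, adjusted p = 6.11e-06). The protease inhibitor Serpina3n rose from 1570.4 and 1470.0 to 6950.4 and 6779.5 (2.16 ± 0.21, adjusted p = 0.000142). Orm2 and Orm3, alpha-1-acid glycoproteins, rose 14.8-fold and at least 6.96-fold, from 269.8 and 181 to 3372 and 3634 and from 35.1 and 26.3 to 416 and 335. Cd14, the endotoxin coreceptor, went from 79.5 and 94.3 to 1387 and 613 (3.19 ± 0.70, adjusted p = 0.0108 and 0.0554 to 0.131 without unoperated pool 1 or 36 h pool 1). Fga, fibrinogen alpha, rose from 8641 and 8642 to 11569 and 11198 (0.40 ± 0.07, adjusted p = 0.00405), and Fgg read 12387 and 13064 and then 15072 and 13877 (0.18 ± 0.09, adjusted p = 0.181).

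In the coagulation and fibrinolysis list 0 rose and 14 fell of 21 measured (0 and 16 at unadjusted p under 0.05, 0 and 5 without unoperated pool 1, 0 and 4 without unoperated pool 2, 0 and 6 without 36 h pool 1 or 36 h pool 2, 0 and 3 with the control covariate), and the median was -0.47. Klkb1, plasma prekallikrein, fell from 3959.8 and 4109 to 1108 and 1076 (log2 change -1.87 ± 0.28, adjusted p = 0.00150). F13b, a factor XIII subunit, fell from 2829 and 2868 to 1411 and 1177 (-1.13 ± 0.16, adjusted p = 0.000778, and with the control covariate -1.16 at 0.0722). Proc, the anticoagulant protein C, fell from 4650.4 and 4853 to 3093 and 2585 (-0.75 ± 0.11, adjusted p = 0.00113, and with the control covariate -0.78 at 0.0820). Genes of both clotting and its inhibition were among those that fell. Fga and Thbd, which rose, were not members of this list.

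Detoxification genes fell more often than they rose, and one member of the same family was among the largest rises. In cytochrome P450 families 1 to 3, 1 rose and 14 fell of 27 measured (1 and 9 without unoperated pool 1, 1 and 8 without unoperated pool 2, 1 and 3 with the control covariate), with a median of -0.48, and Cyp2b10 was the member that rose. Cyp1a2, a pericentral enzyme that oxidizes aromatic amines, fell from 6753 and 6788 to 3471 and 2037 (log2 change -1.34 ± 0.20, adjusted p = 0.00136, and with the control covariate -0.46 at 0.478). Cyp2f2, a periportal enzyme, fell from 10446 and 10454 to 4672 and 5054 (-1.10 ± 0.13, adjusted p = 0.000315). Cyp2e1, which oxidizes ethanol, fell from 13394 and 13711 to 9997 and 8842 (-0.53 ± 0.08, adjusted p = 0.00120, and with the control covariate -0.36 at 0.229). Pericentral and periportal enzymes were both among the falls. Conjugation enzymes gave 3 rises and 10 falls among 26 measured members (1 and 5 with the control covariate), and the median was -0.36 (-0.64 with the control covariate). Ugt2b1, a glucuronosyltransferase, fell from 7626 and 8016 to 3255 and 1871 (-1.66 ± 0.19, adjusted p = 0.000357, and with the control covariate -1.05 at 0.146), and Gstt3, a glutathione transferase, rose from 610.0 and 401 to 1557 and 1595 (1.64 ± 0.24, adjusted p = 0.00102).

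Urea cycle and amino acid catabolism gave 1 rise and 10 falls among 19 measured members (2 and 4 with the control covariate), and the median was -0.54. Otc, which makes citrulline in the urea cycle, fell from 6207 and 5899.8 to 3039.7 and 2088 (log2 change -1.26 ± 0.15, adjusted p = 0.000297, and with the control covariate -0.96 at 0.0917). Agxt, the glyoxylate aminotransferase, fell from 2637 and 2909 to 891 and 856 (-1.65 ± 0.13, adjusted p = 3.40e-05). Fah, the last enzyme of tyrosine breakdown, fell from 6234 and 6695 to 3536 and 3992 (-0.78 ± 0.14, adjusted p = 0.00286). Cps1 and Arg1, the first and last enzymes of the urea cycle, read 10224 and 10404 and then 6784 and 9594, and 9848 and 9484 and then 10311 and 10892, and neither passed.

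Bile acid genes fell or did not pass, with none rising at the threshold. For bile acid synthesis 0 rose and 5 fell of 16 measured (0 and 11 at unadjusted p under 0.05, 0 and 3 without unoperated pool 2, 0 and 8 with the replicate block), median -0.65, and for bile acid, phospholipid and sterol transporters 0 rose and 6 fell of 15 measured (1 and 7 at unadjusted p under 0.05, 0 and 3 without unoperated pool 1, 0 and 2 without unoperated pool 2 or 36 h pool 1), median -0.63 (-1.20 with the control covariate). Akr1d1, the steroid 5-beta reductase, fell from 1373 and 1347 to 419 and 327 (log2 change -1.83 ± 0.24, adjusted p = 0.000632). Cyp27a1, of the alternative synthesis route, fell from 4374 and 4301 to 2804 and 2191 (-0.80 ± 0.13, adjusted p = 0.00217, and with the control covariate -0.72 at 0.181). Cyp7a1, the rate-limiting enzyme of the classical route, read 1076 and 505 and then 243 and 105, apart in all pools but not past the threshold (-2.09 ± 0.73, adjusted p = 0.0703). Slco1a1, an organic anion uptake carrier, fell from 2036 and 2287 to 864 and 423 (-1.81 ± 0.28, adjusted p = 0.00163, and with the control covariate -1.68 at 0.170). Abcg8, of the canalicular sterol pump, fell from 396 and 416 to 114 and 118 (-1.68 ± 0.17, adjusted p = 0.000112). Abcb11, the bile salt export pump, fell from 2267 and 2068 to 604 and 1133 (-1.37 ± 0.31, adjusted p = 0.0118 and 0.0505 to 0.0708 without unoperated pool 1, unoperated pool 2 or 36 h pool 1).

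Lipid genes were split. Of fatty acid oxidation, ketogenesis and PPARA target genes 4 rose and 9 fell of 25 measured (2 and 7 without unoperated pool 1 or 36 h pool 1, 0 and 5 with the control covariate). Ppara, the fasting-activated nuclear receptor, fell from 1549 and 1655 to 890.1 and 841 (log2 change -0.88 ± 0.15, adjusted p = 0.00215). Acads, short-chain acyl-CoA dehydrogenase, fell from 841 and 864 to 432 and 507 (-0.84 ± 0.14, adjusted p = 0.00223). Fabp1, the liver fatty acid binding protein, fell from 13869 and 14559 to 9979 and 9674 (-0.53 ± 0.09, adjusted p = 0.00237, and with the control covariate -0.63 at 0.0876). Cyp4a10, a fatty acid omega-hydroxylase and PPARA target, rose from 1717 and 1737 to 3632 and 4489 (1.22 ± 0.14, adjusted p = 0.000315, and with the control covariate 0.94 at 0.0944). Of lipid droplet and lipid uptake genes 4 rose and 4 fell of 18 measured (4 and 2 without unoperated pool 1 or unoperated pool 2, 3 and 1 with the control covariate). Plin2 and Plin5, which coat droplets, rose from 4657 and 4601 to 11538 and 8248 (1.07 ± 0.20, adjusted p = 0.00406) and from 434 and 419 to 873 and 1105 (1.17 ± 0.17, adjusted p = 0.00101, and with the control covariate 1.21 at 0.0810), and the uptake carrier Slc27a2 fell from 8503 and 9278 to 6459.9 and 5511 (-0.57 ± 0.09, adjusted p = 0.00192, and with the control covariate -0.41 at 0.261).

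Fatty acid and triglyceride synthesis gave 1 rise and 4 falls among 19 measured members (0 and 0 without unoperated pool 1 or unoperated pool 2 or with the control covariate, 0 and 2 without 36 h pool 1, 4 and 3 without 36 h pool 2). Fasn, fatty acid synthase, read 1513 and 1479 and then 2398 and 1399 with overlap of the groups. In cholesterol synthesis and sterol regulation 5 rose and 5 fell of 21 measured (1 and 2 without unoperated pool 1, 3 and 2 without unoperated pool 2, 4 and 2 without 36 h pool 1, 2 and 5 without 36 h pool 2, 1 and 1 with the control covariate). Insig2, which retains SREBP in the reticulum, rose 4.61-fold from 1185 and 1015 to 4854 and 5374 (log2 change 2.20 ± 0.13, adjusted p = 6.11e-06), and Scap, its partner, fell from 1488 and 1666 to 954 and 921 (-0.74 ± 0.12, adjusted p = 0.00152, and with the control covariate -0.89 at 0.0567). Sqle, squalene epoxidase, read 845 and 1004 and then 1636 and 2144 (1.01 ± 0.22, adjusted p = 0.00899 and 0.0644 to 0.0744 without unoperated pool 1 or 36 h pool 2, and with the control covariate 0.86 at 0.358). Apolipoprotein and VLDL assembly genes gave 4 rises and 7 falls among 15 measured members (2 and 4 without unoperated pool 1, 2 and 5 without unoperated pool 2, 2 and 6 without 36 h pool 1, 2 and 0 with the control covariate). Besides Apoa4, Apoc2, the activator of lipoprotein lipase, rose from 4531 and 4246 to 7788 and 8892 (0.92 ± 0.09, adjusted p = 9.32e-05), whereas Apoe fell from 13432 and 13335 to 10859 and 9562 (-0.39 ± 0.08, adjusted p = 0.00570, and with the control covariate -0.39 at 0.222). Apom fell from 4675 and 5086 to 3382 and 2604 (-0.71 ± 0.12, adjusted p = 0.00200, and with the control covariate -0.54 at 0.245). The median of this list was -0.22 (-0.05 after quantile normalization).

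Of gluconeogenesis, glycogen and glucose sensing genes 4 rose and 1 fell of 20 measured (2 and 0 with the control covariate). Ldha, lactate dehydrogenase A, rose from 6680.2 and 6065 to 9751 and 10167 (log2 change 0.64 ± 0.08, adjusted p = 0.000483, and with the control covariate 0.55 at 0.0912). Pkm, the pyruvate kinase of proliferating and non-hepatic cells, rose from 84.9 and 91.95 to 144 and 158 (0.68 ± 0.12, adjusted p = 0.00251, and with the control covariate 0.85 at 0.0689). Fbp1, of gluconeogenesis, read 9888 and 9510.1 and then 8699 and 8169. Serine and one-carbon synthesis gave 6 rises and 4 falls among 20 measured members (4 and 2 without unoperated pool 1, 3 and 2 without unoperated pool 2, 2 and 1 with the control covariate). Besides Psat1, the next enzyme Psph rose from 132 and 110.2 to 332 and 537 (1.68 ± 0.25, adjusted p = 0.00134, and with the control covariate 0.47 at 0.547). Mat1a, which makes S-adenosylmethionine, rose from 5469 and 5148 to 8293 and 8723 (0.68 ± 0.12, adjusted p = 0.00349), and Mthfd1, a folate enzyme, fell from 1139 and 1186 to 385 and 623 (-1.22 ± 0.25, adjusted p = 0.00618). Of oxidative stress and glutathione genes 2 rose and 2 fell of 16 measured (0 and 2 without unoperated pool 1 or unoperated pool 2, 1 and 2 without 36 h pool 1, 0 and 1 with the control covariate), and Cat, catalase, fell from 6780.1 and 6802 to 3628 and 4209 (-0.79 ± 0.16, adjusted p = 0.00575).

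Transcription factors of hepatocyte identity gave 4 rises and 2 falls among 22 measured members (1 and 2 without unoperated pool 1 or 36 h pool 2 or with the control covariate, 2 and 1 without unoperated pool 2 or 36 h pool 1, 2 and 2 after quantile normalization), with a median of 0.03 (0.19 without unoperated pool 1, -0.05 without unoperated pool 2 or after quantile normalization, 0.20 without 36 h pool 1, -0.06 without 36 h pool 2, 0.06 after centring on array medians, -0.18 with the control covariate). Cebpa, which restrains hepatocyte growth, fell from 1556 and 1721 to 560.4 and 701 (log2 change -1.36 ± 0.21, adjusted p = 0.00153). Hnf4a, which maintains the hepatocyte program, read 2828 and 3386 and then 4179.5 and 4242 (0.44 ± 0.12, adjusted p = 0.0225 and 0.0713 to 0.185 without unoperated pool 1, 36 h pool 1 or 36 h pool 2, and with the control covariate 0.73 at 0.101).

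Most genes that male liver expresses more strongly, under the pulsatile growth hormone pattern of males, fell. In this list 0 rose and 12 fell of 15 measured (0 and 12 at unadjusted p under 0.05, 0 and 6 with the control covariate), and the median was -0.89 (-1.37 with the control covariate). Selenbp2, a selenium-binding protein, fell from 8971 and 9615 to 2388 and 2478 (log2 change -1.93 ± 0.09, adjusted p = 1.19e-06). C6, a complement component, fell from 1804 and 2129 to 735 and 613 (-1.52 ± 0.15, adjusted p = 0.000119). Cyp7b1, an oxysterol hydroxylase, fell from 5425 and 6072 to 2154 and 3548 (-1.05 ± 0.21, adjusted p = 0.00609 and 0.0520 without unoperated pool 2). Of female-biased genes 2 rose and 2 fell of 15 measured (1 and 2 without unoperated pool 1, 1 and 1 without unoperated pool 2 or 36 h pool 1, 2 and 1 without 36 h pool 2, 2 and 0 with the control covariate). The counts of the female-biased list were near the shares over all genes, 9.88% rising and 10.2% falling. Trim24, a nuclear receptor cofactor, rose from 132 and 141 to 274 and 303 (1.00 ± 0.18, adjusted p = 0.00367), and Cyp2b9 read 75.4 and 59.4 and then 54.2 and 44.5.

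Growth hormone and IGF axis genes gave 1 rise and 5 falls among 19 measured members (1 and 3 without unoperated pool 1, unoperated pool 2 or 36 h pool 2). Ghr, the growth hormone receptor, fell from 4396 and 4493 to 2056 and 2469 (log2 change -0.97 ± 0.18, adjusted p = 0.00339). Igfals, which stabilizes IGF1 in serum, fell from 530.1 and 610.3 to 182 and 266 (-1.31 ± 0.20, adjusted p = 0.00152). Igf1 itself read 6603 and 6668 and then 6543 and 7175 (log2 change 0.05 ± 0.08, adjusted p = 0.734). Igfbp1, a stress-induced IGF binding protein, rose from 1009 and 3081 to 7537 and 8117 (2.14 ± 0.38, adjusted p = 0.00373 and 0.0894 on the 4 arrays alone, and with the control covariate 2.54 at 0.201). Cish, another STAT5-induced feedback gene, read 403 and 91.2 and then 206 and 125, with the groups overlapping.

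Clock activator genes rose and several clock outputs fell. Of circadian clock and output genes 7 rose and 5 fell of 21 measured (3 and 5 with the control covariate). Arntl, which encodes the activator BMAL1, rose from 28.7 and 35.5 to 219 and 327 (5.92-fold, log2 change 2.57 ± 0.27, adjusted p = 0.000192, and with the control covariate 1.70 at 0.0861). Its partner Npas2 rose from 20.7 and 14.99 to 96.3 and 137 (at least 2.35-fold, 1.96 ± 0.24, adjusted p = 0.000551, and with the control covariate 0.84 at 0.222). The repressor Cry1 rose from 48.6 and 49.2 to 234 and 279 (2.07 ± 0.13, adjusted p = 7.68e-06). Among outputs of the activator, Nr1d2, the repressor REV-ERB beta, fell from 997 and 1095 to 210.5 and 194 (-2.28 ± 0.28, adjusted p = 0.000540). Tef fell from 783 and 889 to 169 and 192 (-2.11 ± 0.20, adjusted p = 8.04e-05). Per3 fell from 123 and 162 to 35.2 and 31.1 (-1.68 ± 0.17, adjusted p = 0.000112), beside Dbp. These 7 genes kept their groups far apart in every pool. Whether the unoperated and the 36 h livers were taken at the same hour is not stated, so the part of the harvest hour was not tested.

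Lists of markers of other liver cells gave rises, falls or no calls. Over all genes tested 9.88% rose and 10.2% fell, so a few calls in a short list are not read as a result about its cells. Of Kupffer cell and macrophage markers 3 rose and 3 fell of 16 measured (3 and 1 without unoperated pool 1, unoperated pool 2 or 36 h pool 1 or with the replicate block, 1 and 4 with the control covariate), with summed intensities of 11831 and 11687 unoperated and 10179 and 12954 at 36 h. Clec4f, which marks resident Kupffer cells, fell from 741 and 760.3 to 387 and 436 (log2 change -0.85 ± 0.13, adjusted p = 0.00144), while Cd68 rose from 185 and 179 to 305 and 381 (0.85 ± 0.15, adjusted p = 0.00339, and with the control covariate 0.44 at 0.460) beside Marco. Of neutrophil markers 0 rose and 0 fell of 11 measured (1 and 0 at unadjusted p under 0.05, 3 and 0 with the control covariate), with sums of 613 and 606 and 858 and 761, and 0 of them lay below the brightest tag control in both groups. S100a8 read 38.8 and 39.3 and then 152 and 149 and did not pass (1.60 ± 0.61, adjusted p = 0.0933). Lcn2 is also a neutrophil granule gene, and the part of infiltrating cells in its rise was not tested.

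Of T, NK and B lymphocyte markers 1 rose and 5 fell of 16 measured (0 and 3 without unoperated pool 1, 1 and 2 without unoperated pool 2, 0 and 2 without 36 h pool 1, 0 and 0 with the control covariate), with sums of 708 and 763 and 623 and 594. Interferon-stimulated and antigen presentation genes gave 1 rise and 7 falls among 26 measured members (0 and 4 without unoperated pool 2, 0 and 1 with the control covariate). H2-Eb1 and Cd74, of the class II presentation pathway of macrophages and B cells, fell from 311 and 276 to 91.7 and 78.8 (log2 change -1.61 ± 0.20, adjusted p = 0.000478, and with the control covariate -1.32 at 0.106) and from 366 and 296 to 129 and 96.1 (-1.44 ± 0.26, adjusted p = 0.00344, and with the control covariate -0.43 at 0.659). For sinusoidal endothelial markers 2 rose and 6 fell of 20 measured (0 and 3 without unoperated pool 1 or 36 h pool 1, 1 and 3 without unoperated pool 2, 0 and 6 without 36 h pool 2, 1 and 8 after quantile normalization, 1 and 2 with the control covariate), with sums of 6753 and 7080.0 and 5212 and 5638. Kdr, the VEGF receptor, fell from 539 and 569 to 292 and 349.9 (-0.76 ± 0.14, adjusted p = 0.00308). Fcgr2b fell from 778 and 824 to 408 and 520.2 (-0.78 ± 0.14, adjusted p = 0.00337, and with the control covariate -0.93 at 0.0984).

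Stellate cell and matrix genes gave 7 rises and 2 falls among 25 measured members (6 and 1 without unoperated pool 1 or 36 h pool 1, 6 and 0 without unoperated pool 2, 2 and 1 with the control covariate), with sums of 11411 and 12603 and 15279.5 and 15200.4. Col4a1 and Col4a2, of basement membrane collagen, rose from 203 and 219.8 to 714 and 486 (log2 change 1.41 ± 0.19, adjusted p = 0.000692) and from 265 and 287 to 547 and 468 (0.84 ± 0.14, adjusted p = 0.00186), whereas Col1a1 of fibrillar collagen read 47.5 and 44.1 and then 44.2 and 41.5. Of cholangiocyte markers 0 rose and 1 fell of 8 measured (1 and 2 at unadjusted p under 0.05), with Krt19 at 40.4 and 34.8 and then 38.2 and 51.3. The member that fell was Tff3, a trefoil peptide of mucous cells, from 446 and 559 to 116 and 109.8 (-1.997 ± 0.13, adjusted p = 1.10e-05). Erythroid markers gave 1 rise and 4 falls among 8 measured members (0 and 2 with the control covariate), and Hba-a1, alpha globin, fell from 7311 and 7135 to 2766 and 2821 (-1.37 ± 0.19, adjusted p = 0.000812), so the arrays differ in blood transcripts too. Among platelet and megakaryocyte markers 0 rose and 0 fell of 6 measured (1 and 2 at unadjusted p under 0.05), and among defining hepatocyte markers 2 rose and 3 fell of 10 measured (1 and 1 without unoperated pool 1 or unoperated pool 2, 1 and 2 without 36 h pool 1 or 36 h pool 2, 2 and 0 with the control covariate). The part of a changed cell mix in the results above was not tested.

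The wildtype comparison at 36 h shared no array with the Socs2-null one, and most genes moved in the same direction in both. In the same model 2625 genes were called in wildtype, 15.4% of those tested, of which 37.5% rose, or 53.4% of 2262 after centring on array medians. Without unoperated wildtype pool 1 or 2 or 36 h wildtype pool 2 the count was 752, 594 or 1066, and with the control covariate 537. Both genotypes called 1886 genes, which is 54.9% of the Socs2-null and 71.8% of the wildtype calls, and 1884 of them had the same direction. Of the 3434 Socs2-null calls 98.9% had the same sign in the wildtype means, and Pearson's r between the log2 changes was 0.867 across genes, which are not independent replicates. For genes that rose in Socs2-null liver the median log2 change was 0.67 there and 0.47 in wildtype, and for genes that fell -0.64 and -0.53. These genes were chosen by the first value of each pair, which alone favours a larger change there. The hybridization controls averaged 9.98 and 9.95 in unoperated and 9.21 and 9.07 in 36 h wildtype pools. The 3' to 5' ratio of Actb was 1.42 and 1.45 and then 1.24 and 1.25. Both comparisons thus share these shifts, and their part in the likeness of the genotypes was not tested.

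**Figure D4:**
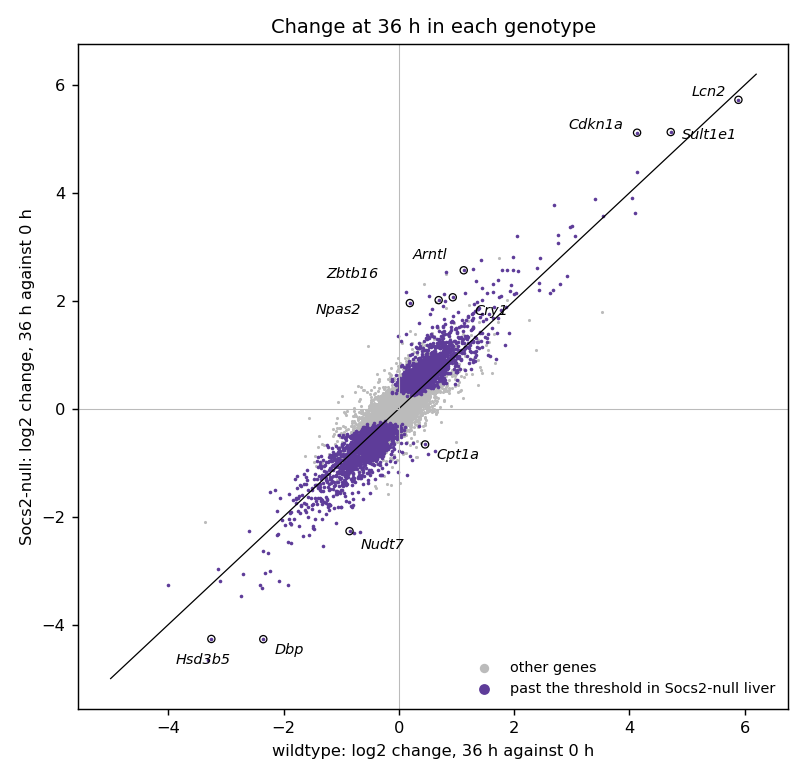
Log2 change at 36 h in wildtype (x axis) and Socs2-null liver (y axis), 1 point per gene, with purple for the 3434 genes past the threshold in Socs2-null liver and a line at equal change. Nudt7 lies below the line and passed the test of the difference, and the other labelled genes away from it, such as Dbp, Npas2 and Cpt1a, did not.

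The difference between the genotypes in the change at 36 h was called for 1 gene of 17097 (0.00585%), and 646 genes had an unadjusted p under 0.05. That gene was Nudt7, a peroxisomal coenzyme A hydrolase. It read 7851 and 8131 without operation and 1496 and 1812 at 36 h in Socs2-null liver (4.82-fold lower, log2 change -2.27 ± 0.11, adjusted p = 1.19e-06), and 8288 and 8399.5 and then 4561 and 4649 in wildtype (log2 change -0.86). All 4 wildtype pools at 36 h and without operation were above both Socs2-null pools at 36 h, and the difference of the changes was -1.41 ± 0.15 (adjusted p = 0.0227). This call was lost as the mean of its probe sets, with plain eBayes, or without either unoperated wildtype pool, unoperated Socs2-null pool 2, either 36 h wildtype pool or 36 h Socs2-null pool 1.

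Clock and fatty acid genes had large differences that did not pass. Dbp read 125 and 234 in the 36 h wildtype pools, above both Socs2-null pools at 33.2 and 39.03 (difference -1.92 ± 0.34, adjusted p = 0.571). Npas2 stood at 30.4 and 26.2 in wildtype and 96.3 and 137 in Socs2-null liver (difference 1.77 ± 0.34, adjusted p = 0.572), and Cry1 at 109.9 and 118 and 234 and 279 (1.13 ± 0.19, adjusted p = 0.407). Zbtb16, a transcriptional repressor, went from 79.8 and 96.6 to 410.2 and 396 in Socs2-null and from 249 and 178 to 337 and 364 in wildtype liver (1.32 ± 0.25, adjusted p = 0.572), where the unoperated levels differ more than those at 36 h. Cpt1a, which admits fatty acids to mitochondria, fell from 2193 and 2401 to 1366 and 1529 in Socs2-null liver and read 2169 and 2288 and then 2913 and 3218 in wildtype (-1.12 ± 0.18, adjusted p = 0.407).

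Genes of the stress response and of ribosome biogenesis gave fewer calls in wildtype than in Socs2-null liver at 36 h. The stress response list had a median log2 change of 0.64 in Socs2-null and 0.13 in wildtype liver, where rises and falls numbered 1 and 1. Ribosome biogenesis had medians of 0.77 and 0.45, with 3 and 1 called in wildtype, where 5.76% of all genes rose and 9.6% fell. Hspa5 read 3653 and 3905 without operation, 9596 and 7462 at 24 h and 4525 and 5671 at 36 h in wildtype, and 3521 and 3952, 6367 and 8654 and 7299.5 and 6532 in Socs2-null liver (difference of the 36 h changes 0.46 ± 0.23, adjusted p = 0.999). Creld2 read 568 and 786, 6981 and 3535 and 727 and 1014 in wildtype and 584 and 509, 2138 and 6099 and 1503 and 1869 in Socs2-null liver. No member of either list passed the test of the difference, and the difference of the medians was not tested.

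The gap between the genotype medians was widest, among the 49 lists, for cholesterol synthesis and sterol regulation, at 0.36 in Socs2-null and -0.48 in wildtype liver, where 2 rose and 5 fell. With the control covariate the Socs2-null median was -0.31, so its sign was not kept. For bile acid, phospholipid and sterol transporters the medians were -0.63 and 0.03, with 0 rises and 2 falls in wildtype. Fatty acid oxidation, ketogenesis and PPARA targets, a list that holds Nudt7 and Cpt1a, had -0.06 and 0.33, with 8 rises and 4 falls in wildtype. These differences of medians were not tested, and Nudt7 was the only gene of any list past the test of the difference. Other lists had closer medians. Ribosomal proteins had a median of 0.45 in Socs2-null and 0.40 in wildtype liver, where 33 and 0 rose and fell. Cytoskeletal genes had 1.10 and 0.86, with 19 and 1 in wildtype. Coagulation genes had -0.47 and -0.40, with 1 and 10, and the male-biased list -0.89 and -0.81, with 0 and 10. Nudt7 is also a member of the male-biased list.

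Few genes were called between Socs2-null liver at 36 h and at 24 h. The 24 h Socs2-null pools had the widest spread about their mean of the 6 groups, 0.23 on the log2 scale. With 2 pools a group, few calls do not show that the 2 times are alike. Against the same unoperated pools 4176 genes (24.4%) were called at 24 h, of which 44.5% rose, or 60.5% after centring on array medians. That count was 2257 or 2042 without unoperated pool 1 or 2, and 2462 on the arrays compared alone. Lcn2 had log2 changes of 5.72 at 24 h and 5.72 at 36 h, Cdkn1a 4.76 and 5.12, Dbp -4.42 and -4.27, Hsd3b5 -4.05 and -4.27, and Mcm6 2.47 and 2.29. Since both comparisons share the unoperated pools, these values are given without a measure of likeness. Set directly against each other, the 36 h and 24 h pools gave 1 call in 17097 (0.00585%), with 1230 genes at an unadjusted p under 0.05. It was Tff3, at 349 and 310.1 at 24 h and 116 and 109.8 at 36 h (log2 change -1.42 ± 0.13, adjusted p = 0.00557). Sult1e1 read 225 and 1102 at 24 h and 1800.1 and 1623 at 36 h and Afp 79.5 and 64.5 and 127 and 517, and neither passed.

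**Figure D5:**
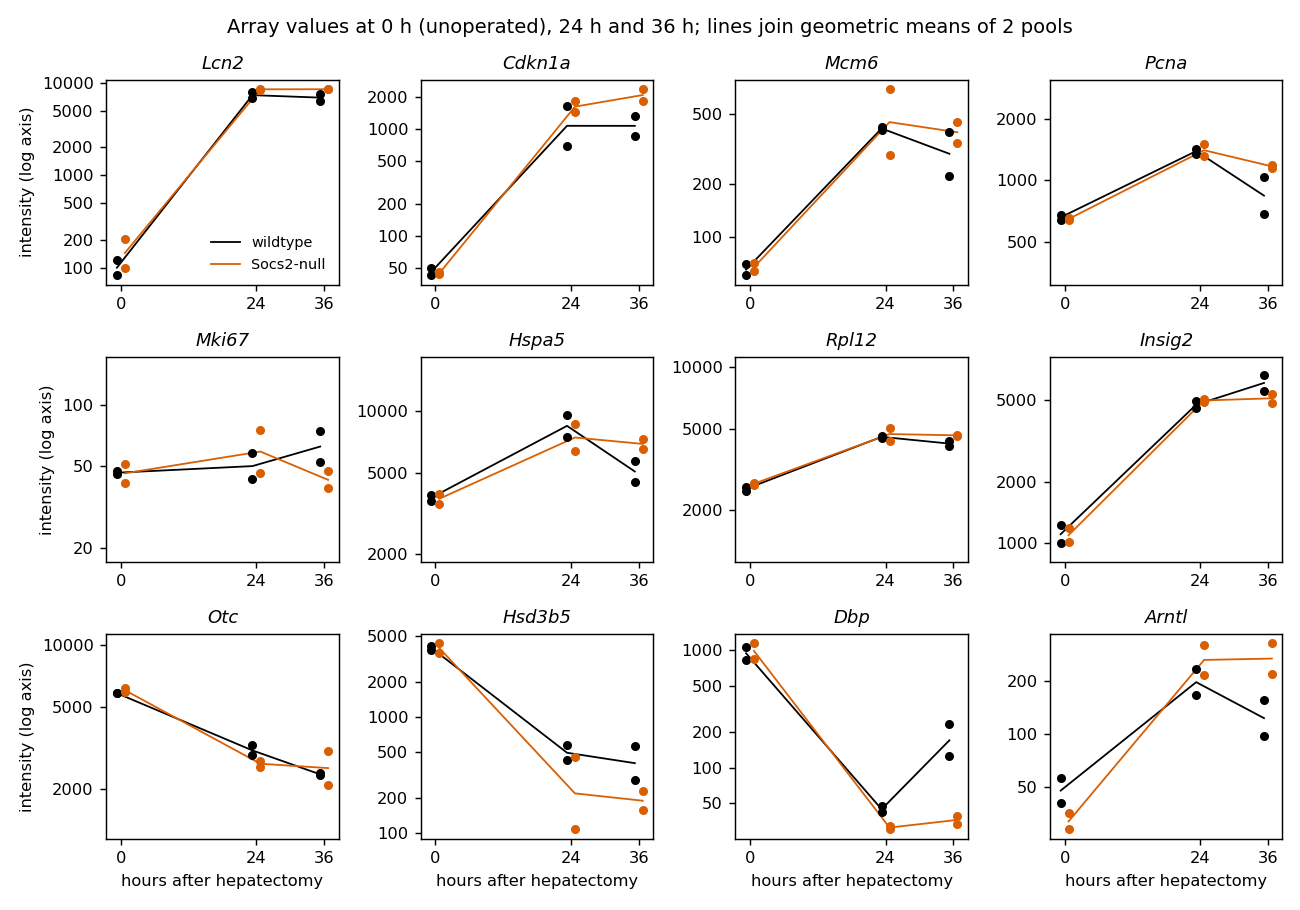
Intensity on each array (log axes) at 0, 24 and 36 h for 12 genes, in wildtype (black) and Socs2-null liver (orange), with lines through the geometric means of 2 pools. Lcn2 and Cdkn1a are high and Dbp and Hsd3b5 low at both 24 and 36 h in Socs2-null liver, and Dbp at 36 h is higher in both wildtype than in both Socs2-null pools.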

How the data were processed

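RNA from liver pools was measured on 12 Affymetrix HT MG-430 PM arrays, 2 per genotype and time. The deposited table holds intensity values on a linear scale, which the authors made from the scans. Their summarization, background correction and normalization are not stated in what was used here. Their precision is limited by the number of arrays.

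Of 45141 probe sets, 28898 were paired with 1 gene symbol, 551 with several and 15588 with none in the platform table. Each of 17097 genes was represented by its brightest probe set, averaged over the arrays. limma 3.58.1 in R 4.3.3 fitted the 6 group means to log2(intensity + 16) over all 12 arrays (6 residual degrees of freedom, eBayes with trend and robust), and p-values are two-sided. The fit was also run on simulated data with independent normal noise and no shift in the control level. That run does not check the calls above. The brightest of 17 tag controls served as the background of an array. Genes were named by rule: Socs2, the 15 largest rises and falls that separated the groups, the genes past the threshold for the genotype difference (else the 3 highest and lowest moderated t), the brightest member and up to 6 with the lowest p of each list, and a fixed list of genes named always; some were left out for length. The genes compared and the 49 lists (1117 members, 989 measured) were chosen with earlier results of these data known. Alternatives changed the pseudocount, the normalization, the filter, the probe set rule, the model and the arrays. A covariate for the 18 hybridization controls was added after seeing the data. Figures used Python 3.11.15 and matplotlib 3.10.9. Promoter windows are from RefSeq on GRCm38.p6, with those of 1 chromosome not used.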

Additional observations from a re-analysis of the deposited data

Results flagged for a closer look

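Nudt7 was selected because the change at 36 h differed between the genotypes in the test of that difference, by -1.41 on the log2 scale (limma, adjusted p = 0.0227). Cpt1a was selected because both Socs2-null pools fell and both wildtype pools lay higher at 36 h than without operation, a difference of -1.12 that did not pass (adjusted p = 0.407).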

How the results depend on the processing

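The count of called genes in Socs2-null liver at 36 h was 3434, and 2845 on the 4 arrays compared alone. It ranged from 1589 to 3961 when arrays were left out one at a time, and was 1428 with the hybridization control covariate. In wildtype the range was 594 to 3075, and 537 genes were called with the covariate. For the genotype difference the range was 0 to 13, with 0 as the mean of probe sets or with plain eBayes and 2 on the arrays compared. At 24 h the range was 2042 to 4358, with 2462 on the arrays compared. For 36 h against 24 h the range was 1 to 9, with 3 after quantile normalization, 2 after dropping the dimmest 50% of genes, and 0 with the covariate or on the arrays compared. Replicate numbers were not used to pair the samples in the main fit. Between the deviations of same-numbered unoperated and 36 h Socs2-null pools r was -0.028, and between those of 24 h and 36 h Socs2-null pools -0.50. With the replicate number as a block 3169 genes were called at 36 h, and 2 for 36 h against 24 h. Of 151 named genes past the threshold, 73 stayed past it under all 24 alternatives 134 in every fit that left out an array, and 76 with the covariate. Mcm2 and Mcm5 reversed with the covariate, to -0.10 and -0.053, and the cause was not tested. With 2 pools a group and signals near background for many cell cycle genes, small changes there were not detectable.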

Other observations

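The 2 Socs2-null pools at 36 h differed from each other by more than 1 on the log2 scale in 140 genes, 124 of them higher in pool 1, against 50 genes between the unoperated pools. The genes named here were chosen after their values were seen. Ivl, which encodes the epidermal protein involucrin, read 1127 in pool 1 and 18.6 in pool 2, beside 23.6 and 24.7 without operation. Pdk4, a kinase that restrains pyruvate oxidation, read 1723 and 95.2, beside 33.9 and 64.3. Hmox1, heme oxygenase, read 1912.5 and 392, beside 196 and 223, and Tiparp, a target of the aryl hydrocarbon receptor, 869.6 and 139, beside 83.6 and 86.3. None of these 4 genes passed the threshold, and 1 pool carried most of the difference in each. In the other direction Afp and the histidine ammonia-lyase gene Hal were higher in pool 2, Hal at 385 and 937 beside 2199 and 2118. Which animals or steps set the pools apart was not tested.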
